A study of Schizosaccharomyces pombe with 6 samples.

Results

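The input DNA of a chromatin immunoprecipitation experiment on fission yeast, Schizosaccharomyces pombe, was used as a profile of relative DNA copy along the genome, and cells without the checkpoint kinase gene rad3 were compared with cells that carry it. The members are the input channels of all 6 two-colour tiling arrays of the series, 3 per strain, read in 10 kb bins. They were chosen by channel and not by any measured value: the red dye on replicates 1 and 2 and the green dye on replicate 3 of both strains, as the labels assign them. Of 1238 bins of 10 kb that held a usable probe, 1225 had at least 10 probes and were analysed, with a median of 35 probes each. The immunoprecipitated channel was not used.

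Both strains carry cdc25-22, a heat-sensitive allele of the phosphatase that starts mitosis. The strain called WT has this allele and an intact rad3, and the strain called rad3∆ has the allele and lacks rad3. Cultures in EMM6S medium were stopped for 4 h at 36.5 °C, let go at 25 °C, and exposed to 6 mM hydroxyurea after the release. When cells were collected after release is not stated in the labels. The protocols in the labels are worded for RNA, whereas each channel is marked as IP or input and was read here as DNA. One label, the input of rad3∆ replicate 3, names cdc25-23 in place of cdc25-22. No untreated or time-zero input was analysed here, so every difference below is rad3∆ against WT in hydroxyurea and not a change from an unreplicated state.

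As background, Rad3 is the ATR-family kinase that fission yeast cells need to answer stalled replication forks. Hydroxyurea inhibits ribonucleotide reductase, starves forks of deoxynucleotides and, through Rad3 and its effector kinase Cds1, holds back origins that have not yet fired. Fission yeast origins have no fixed consensus and lie mostly in A+T-rich stretches between genes, and the subtelomeres are among the late replicating parts of its genome. The input of a cross-linked, sheared and amplified extract follows the amount of each stretch of DNA, and it also carries differences in shearing, recovery, labelling and hybridisation.

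Values are log2 input intensity relative to the median nuclear probe of the same array. A difference is the level in rad3∆ minus the level in WT at the same replicate number, averaged over the 3 pairs. A stretch copied in every cell of one strain and in no cell of the other would differ by 1 on this scale. Centring removes any difference in copy shared by the whole genome.

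The islands around which the strains differed are defined by sequence alone. They are stretches of 500 bp windows with at least 75% A+T in the reference assembly ASM294v3, of which 361 were found, with a median width of 700 bp. The sequences below are 150 bases each from 3 such islands, on the plus strand of ASM294v3 and outside any annotated gene. The first comes from the island with the highest difference among those with no overlap between the strains' arrays. The others come from the gaps with the difference nearest to 0. Capitals mark runs of 6 or more A or of 6 or more T.

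nas6 to rpp40, chrI:2339331-2339480: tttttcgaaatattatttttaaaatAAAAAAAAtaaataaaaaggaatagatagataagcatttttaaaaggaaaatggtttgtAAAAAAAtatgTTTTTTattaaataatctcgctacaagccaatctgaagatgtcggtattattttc

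eki1 to msa1, chrI:2318341-2318490: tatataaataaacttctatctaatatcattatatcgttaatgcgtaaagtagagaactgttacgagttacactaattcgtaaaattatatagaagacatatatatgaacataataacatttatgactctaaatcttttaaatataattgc

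ght7 to SPBPB8B6.02C, chrII:44391-44540: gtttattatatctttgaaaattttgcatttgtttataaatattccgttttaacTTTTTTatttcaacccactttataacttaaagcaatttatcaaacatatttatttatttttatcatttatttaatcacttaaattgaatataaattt

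The stretch between nas6 and rpp40 holds 3 such runs, the stretch between eki1 and msa1 holds 0 and the one between ght7 and SPBPB8B6.02C holds 1. Across the part of the genome where coordinates match, 34.6% of all 150-base windows and 70.6% of those wholly inside islands hold a run, searched as A or T on 1 strand, which covers both strands. The number of runs was not tested against the difference.

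The strain labels were checked first at rad3 itself (chromosome II, 904184 to 913629), which the profile leaves out. Of its 33 probes, 23 between 904607 and 911114 had lost their signal in every rad3∆ input, with a median level of -0.28 ± 0.16 in WT and -6.02 ± 1.20 in rad3∆ (SD, n = 3 per strain). At most 2 of these 23 probes were well above background in a rad3∆ array, so the rad3∆ level is only a bound. The other 10 probes stood at -0.30 ± 0.22 in WT and -0.23 ± 0.18 in rad3∆. Since the probes were split on the measured signal itself, they were not tested.

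The arrays had median input intensities of 970 to 1105, and 99.07% to 99.94% of nuclear probes had an input well above background. Same-numbered arrays share a slide and were scanned together, per the file headers. Their inputs correlated over single probes at 0.982 to 0.988, against 0.906 to 0.954 between arrays of one strain on different slides. On every slide WT was at position 2 and rad3∆ at position 4, so strain and slide position cannot be told apart. No label states whether replicates came from independent cultures, and the p-values below therefore cover the spread among these arrays, technical or not.

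Input near A+T-rich islands was higher in rad3∆ than in WT, and the difference fell off with distance from the island. The island excess is the mean level of 2982 probes within 1 kb of an island minus that of 25752 probes over 5 kb from any. It was -0.018, 0.09 and 0.055 on the WT arrays and 0.12, 0.19 and 0.12 on the rad3∆ arrays. Every rad3∆ array lay above every WT array. The mean excess was 0.043 ± 0.055 in WT and 0.14 ± 0.038 in rad3∆ (SD, n = 3 per strain). The pairs differed by 0.14, 0.098 and 0.064, which is a mean of 0.10 ± 0.038 (SD, n = 3 pairs). This is a ratio of near to far input 7.24% higher in rad3∆. On their own, the near probes differed by 0.091 and the far probes by -0.010. With islands defined at 70% A+T the difference in the excess was 0.040. An exact permutation test of 3 against 3 arrays, two-sided, gave p = 0.1, the smallest that this design allows.

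Taken in 1 kb steps of distance, with probes over 10 kb away as the reference, the difference was 0.10 in the first step, 0.068 in the second, 0.041 in the third and 0.024 in the fourth, and between 0.01 and 0.02 in each of the 6 further steps. By limma with a term for dye orientation, 2 of 10 steps passed an adjusted p of 0.05 as higher in rad3∆ (20% of steps), the second (adjusted p = 0.0065) and the fourth (adjusted p = 0.036), and 0% as lower. The nearest step had an adjusted limma p of 0.056. With the replicate number as a block, 8 of 10 steps were higher (80%), the nearest with an adjusted limma p of 0.012. With the dye term and without WT replicate 2 no step was called, and without each other array 1 to 4 were, while the difference in the nearest step stayed positive throughout. The steps share arrays and are not independent of each other.

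**Figure D1:**
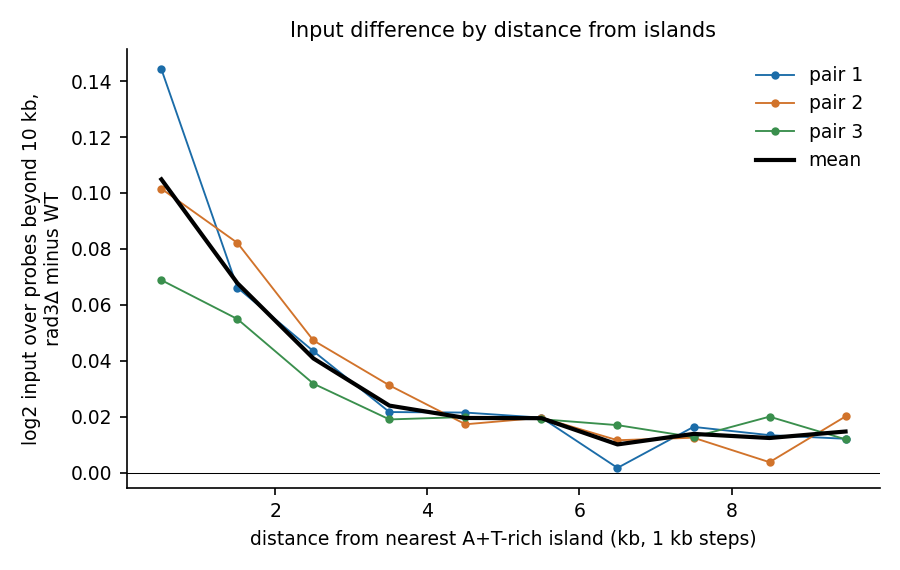
Difference in log2 input between strains (rad3∆ minus WT, vertical axis) by distance in kb from the nearest A+T-rich island in 1 kb steps (horizontal axis), over probes more than 10 kb away. Coloured lines are the 3 same-numbered pairs and the black line is their mean, which falls from 0.10 in the first step to 0.024 from 3 to 4 kb.

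The excess was not alike on the 3 chromosomes. On chromosome I the pairs differed by 0.16, 0.14 and 0.088, with 0.13 ± 0.042 in WT and 0.26 ± 0.040 in rad3∆. On chromosome II they differed by 0.14, 0.092 and 0.06, with 0.031 ± 0.059 and 0.13 ± 0.042. On chromosome III they differed by 0.097, 0.03 and 0.023, and there the arrays of the strains overlapped, with -0.041 ± 0.067 in WT and 0.009 ± 0.032 in rad3∆ (SD, n = 3 per strain). All 3 pairs were higher in rad3∆ on each chromosome. Whether chromosomes differ in this was not tested.

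Base composition moved with island distance. The 500 bp around probes near islands held 33.04% G+C on average, and those far away held 36.4%. Pair 1 had a trend of its own with G+C: at probes over 5 kb from islands its median difference was 0.14 below 28% G+C and -0.17 above 44%. In pairs 2 and 3 the same classes gave -0.011 and -0.02 at low G+C, and 0.01 and 0.057 at high G+C. Within 1 kb of islands, pairs 2 and 3 were above 0 in each of the 6 G+C classes, from 0.065 to 0.21 in pair 2 and from 0.030 to 0.078 in pair 3. Pair 1 was above 0 there up to 40% G+C and at -0.033 and -0.039 above it. After a loess correction of every array for G+C, the difference was 0.085 in the nearest step and 0.068 in the next, and 6 of 10 steps passed limma's adjusted p of 0.05.

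**Figure D2:**
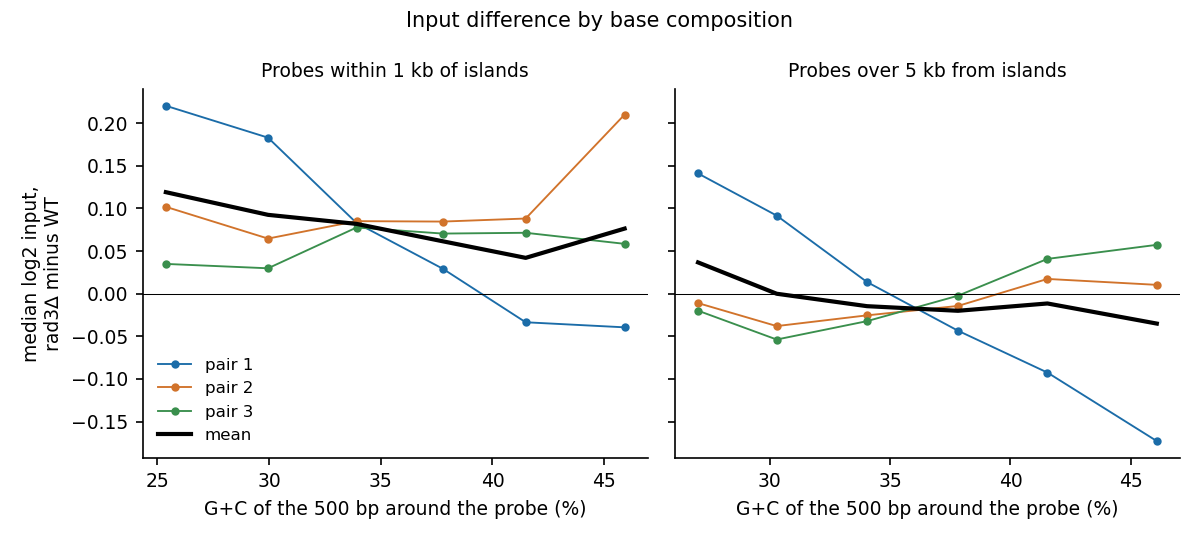
Median difference in log2 input (rad3∆ minus WT, vertical axis) by mean G+C percent of the 500 bp around the probe (horizontal axis), for probes within 1 kb of islands (left panel) and over 5 kb from them (right panel). Coloured lines are the 3 pairs and the black line is their mean; pair 1 falls with G+C in both panels, while pairs 2 and 3 lie above 0 in every class of the left panel.

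Islands were also measured one by one, an analysis added after the data had been seen. With 1 kb on either side and at least 5 probes, 320 of the 361 islands could be measured. Their median difference was 0.079, against -0.015 for 2470 windows of 700 bp, the median island width, with the same flanks and over 5 kb from any island. In all 3 pairs 134 islands were higher (41.9%) and 20 were lower (6.25%), while of the far windows 11.5% were higher and 19.6% lower in all 3 pairs. All 3 rad3∆ arrays lay above all 3 WT arrays at 25 islands (7.81%) and below them at 0 (0%), against 1.7% and 1.9% of far windows. By limma with the dye term no island passed an adjusted p of 0.05 (0%), with 20 higher and 0 lower at an unadjusted p under 0.05. With the replicate block 37 islands were higher (11.6%) and 0 lower, and 0 far windows were called in either direction (0%). These 37 differed by 0.23 to 0.45, and 18 of them had no overlap between the strains. The blocked count was 11 without replicate 1 of both strains, 0 without replicate 2 and 23 without replicate 3. The far windows match the islands in width and not in base composition, and no G+C-corrected fit was made for either set. P-values were adjusted separately over the islands and over the far windows.

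The island between nas6, which encodes a proteasome assembly chaperone, and rpp40 (chromosome I, 2338951 to 2339800) stood at 1.30, 1.14 and 0.99 in WT and at 1.61, 1.73 and 1.46 in rad3∆. The strains did not overlap, and the difference of 0.45 ± 0.14 (SD, n = 3 pairs) had an adjusted limma p of 0.77 with the dye term and 0.011 with the replicate block. Its sequence is the first of the 3 shown above.

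In the gap between ddr48 and jmj1 (I, 2525051 to 2525600) the difference was 0.38, and in that between zuo1 and rap1, the latter a telomere protein gene (II, 3097251 to 3098200), it was 0.34. Both gaps had no overlap between the strains. Pair 3 differed by only 0.099 and 0.092 in them, against 0.34 to 0.59 in pairs 1 and 2. The adjusted limma p was 0.77 for each with the dye term, and 0.023 and 0.034 with the replicate block. The island between eki1 and msa1, the second sequence above, stood at 0.22, -0.082 and 0.18 in WT and at 0.10, -0.12 and 0.35 in rad3∆. These overlapped throughout.

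The called islands lay in several kinds of place. Of 136 islands between divergent genes, 20 were called with the block (14.7%), as were 13 of 115 between tandem genes (11.3%), 2 of 35 between convergent genes (5.71%) and 2 of 34 inside a gene (5.88%). The median difference was 0.10 in divergent gaps and 0.017 in convergent ones. By chromosome, 18 of 108 measured islands of I, 19 of 154 of II and 0 of 58 of III were called. On chromosome III, 12 islands were higher in all 3 pairs and 6 were lower.

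Over 10 kb bins the 2 strains' profiles were nearly the same. The mean levels of WT and rad3∆ correlated at 0.968 over the 1225 bins, a description of bins that share arrays and probe sequences. The mean difference had an SD of 0.073 and lay within 0.1 of 0 in 84% of bins, and it ranged from -0.17 to 0.31. By limma with the dye term 0 bins were higher and 0 lower in rad3∆ at an adjusted p of 0.05 (0% of bins). At an unadjusted p under 0.05 there were 26 higher and 10 lower. With the replicate block 8 bins were higher (0.653%) and 0 lower (0%). That count was 0 without replicate 1 of both strains, 4 without replicate 2 and 30 without replicate 3, of which 26 were higher. All 3 pairs were higher in 211 bins (17.2%) and lower in 253 (20.7%). All rad3∆ arrays were above all WT arrays in 47 bins (3.84%) and below them in 38 (3.1%).

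**Figure D3:**
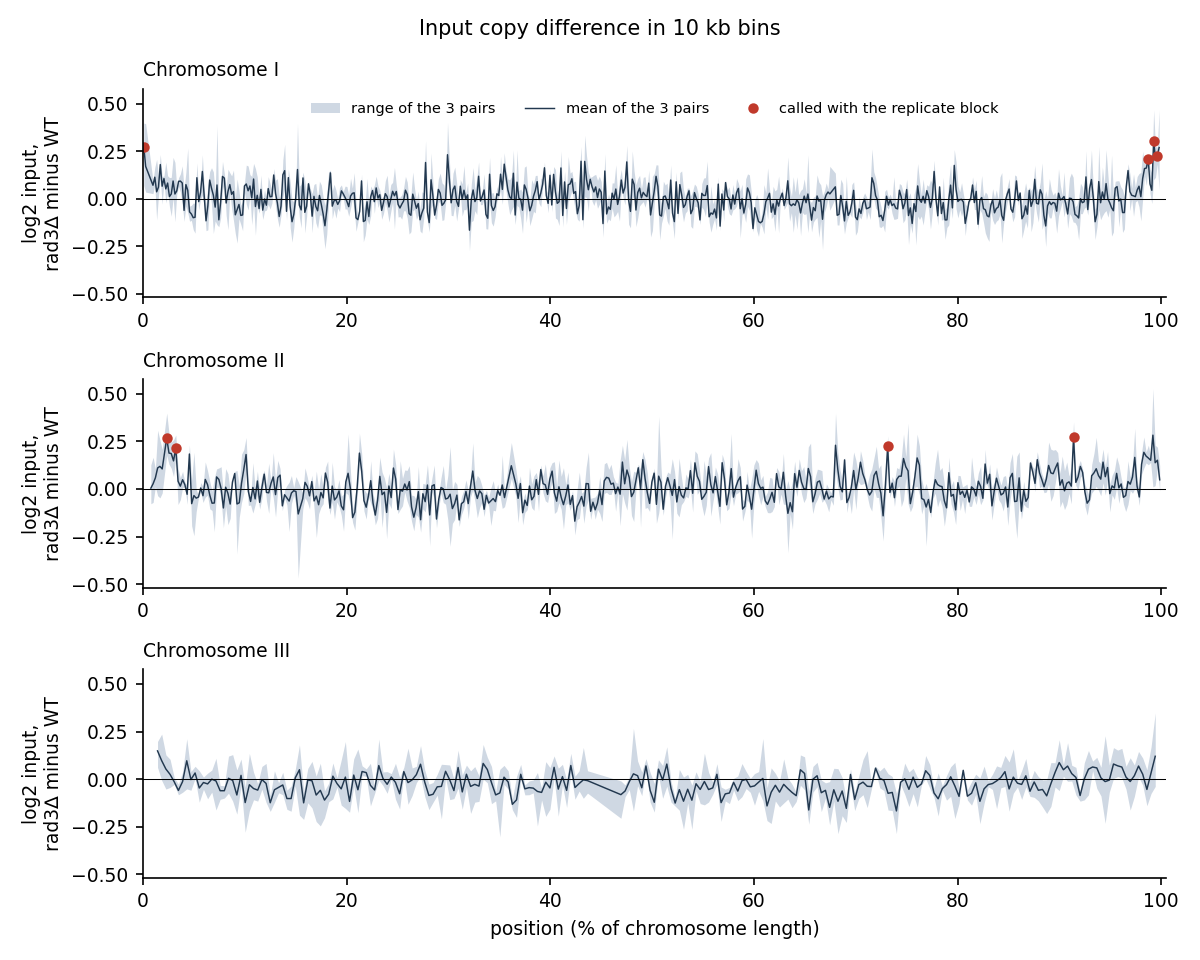
Difference in log2 input (rad3∆ minus WT, vertical axis) in 10 kb bins along chromosomes I, II and III, with position as percent of chromosome length (horizontal axis). The line is the mean of the 3 pairs, the band their range, and red points the 8 bins called with the replicate block, of which 4 lie on chromosome I and 4 on chromosome II.

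The pairs shared only part of this profile. Over bins the differences of pairs 1 and 2 correlated at 0.32, those of 1 and 3 at 0.17 and those of 2 and 3 at 0.29, with SDs of 0.12, 0.10 and 0.086. Bins at a distance of 10 kb from each other correlated at 0.30 in mean difference, and bins 50 kb apart at 0.15. In the 1046 bins of the matching part the mean difference correlated at -0.29 with G+C content and at 0.031 with the WT level. All of these are descriptions over bins of the same arrays.

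Bins with islands were higher more often. Among 758 matching bins with no island the median difference was -0.018, among 257 bins with 1 island it was 0.028, and among 31 bins with 2 or more it was 0.059. From 1 island to 2 or more, the median went from 0.034 to 0.090 in pair 1, from 0.028 to 0.027 in pair 2 and from 0.028 to 0.012 in pair 3. The share of bins higher in all 3 pairs was 12.5%, 30.4% and 45.2% in that order, against 17.2% of all bins, and the share lower in all 3 pairs was 24.7%, 8.95% and 12.9%. Of the 39 matching bins where every rad3∆ array was above every WT array, 20 held an island. Of the 34 where every rad3∆ array was below, 3 did, and of all 1046 matching bins 288 did. Median G+C was 36.2% in bins with no island, 35.6% with 1 and 34.6% with 2 or more. Its part in the difference between these bins was not tested.

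The 8 bins called with the block were all higher in rad3∆. Of them 6 lay within 150 kb of an end of chromosome I or II, as did 55 of all 1225 bins. The bin with the largest difference (I, 5520001 to 5530000 in the files' coordinates) stood at -0.14, -0.10 and 0.19 in WT and at 0.21, 0.37 and 0.29 in rad3∆. It lies in the part of chromosome I where the files' coordinates do not match the reference, so no genes are named there. The strains did not overlap, and the difference was 0.31 (limma adjusted p = 0.996 with the dye term and 0.041 with the block). The adjacent bins, from 5510001 and 5530001, differed by 0.044 and 0.21 and were not called. The other called bins of this end, from 5490001 and 5540001, differed by 0.21 and 0.23.

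At the other end of chromosome I, the bin from 1 to 10000, whose measured gene is tlh1, of the telomere-linked helicase family, stood at 0.96, 0.99 and 1.16 in WT and at 1.36, 1.33 and 1.23 in rad3∆. The difference of 0.27 was called with the block (limma adjusted p = 0.0499), although pair 3 differed by only 0.07. Taken alone, the 16 probes of tlh1 differed by 0.067, with pairs of 0.17, 0.11 and -0.078 and overlapping arrays. tlh1 has near-identical copies at other chromosome ends, which the probes may not tell apart.

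Among the 10 highest bins with all pairs up, 4 were not called by either fit. They were the bin from 4450001 on chromosome II, with fub2 and nrg1 (0.28, with pairs of 0.53, 0.31 and 0.011), that from 5550001 on chromosome I (0.27), that from 1660001 on chromosome I, with msc1 and rds1 (0.23), and that from 3050001 on chromosome II, with leo1 and brf1 (0.23).

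On chromosome II the bin from 100001 to 110000, with alr2, an alanine racemase gene, stood at -0.078, 0.049 and 0.056 in WT and at 0.32, 0.27 and 0.23 in rad3∆. Its difference was 0.27 (limma adjusted p with the block = 0.041). The bin from 140001, with SPBC1683.04 and thi7, differed by 0.21. The other 2 called bins were in the arms. That from 4100001, with tam13 and mug147, stood at -0.13, -0.40 and -0.21 in WT and at 0.092, -0.049 and 0.027 in rad3∆ and had the smallest adjusted p of the blocked fit, 0.039. That from 3280001, with gar1, a subunit gene of the H/ACA snoRNPs, and nse4, of the Smc5-Smc6 complex, differed by 0.22.

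Bins on the low side were smaller in difference and none was called by either fit. The bin from 1900001 on chromosome II, which holds tra1 and ubc7, had the lowest difference, -0.17, with -0.36, -0.17 and -0.33 in WT and -0.48, -0.41 and -0.46 in rad3∆ and no overlap. The bin from 3330001 on chromosome I, with rrp9 and chc1, the clathrin heavy chain gene, stood at 0.21, 0.16 and 0.17 in WT and at 0.059, -0.013 and 0.025 in rad3∆. The bin from 920001 on chromosome II, with tor2, the gene of a TOR kinase, stood at -0.035, -0.017 and -0.014 and at -0.20, -0.19 and -0.12. Among the 10 lowest bins with all pairs down, differences ran from -0.17 to -0.15 and 8 held no island, near the 72.5% of all matching bins that held none.

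Chromosome ends of I and II stood higher in rad3∆ as a group. Of the 55 bins within 150 kb of an end, 32 were higher in all 3 pairs (58.2%) and 0 lower. All rad3∆ arrays lay above all WT arrays in 13 of them (23.6%) and below in 0. Among the other 937 bins of these chromosomes, 157 were higher in all 3 pairs (16.8%) and 194 lower (20.7%). There 32 (3.42%) had all rad3∆ arrays above and 28 (2.99%) all below. The planned zone was 100 kb. That of 150 kb was set after the data had been seen, so these counts partly restate how it was drawn. The median difference was 0.077 at the left end of I, 0.13 at its right end, 0.11 at the left end of II and 0.14 at its right end. Whether the ends differ from the arms was not tested beyond these counts.

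By distance from the nearest end, input on chromosomes I and II stood at -0.19, -0.11 and -0.12 in WT and at 0.00083, 0.058 and -0.061 in rad3∆ from 25 to 50 kb. From 100 to 150 kb it stood at 0.022, 0.047 and 0.026 in WT and at 0.094, 0.18 and 0.099 in rad3∆. The strains did not overlap in the steps from 25 to 150 kb, nor from 300 to 500 kb, where the difference was 0.022. Over 500 kb from an end the difference was -0.0046. Within 25 kb of the ends the arrays overlapped, with a mean difference of 0.10. On chromosome III, whose ends carry the ribosomal DNA, only the step within 25 kb was higher in all 3 pairs, by 0.15 over 148 probes. The arrays of the strains overlapped there too. The next 4 steps differed by -0.0072 to 0.015. The steps from 200 kb on were lower in all 3 pairs, by -0.016, -0.034 and -0.032 on average, and the last, over 500 kb from an end, had no overlap.

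**Figure D4:**
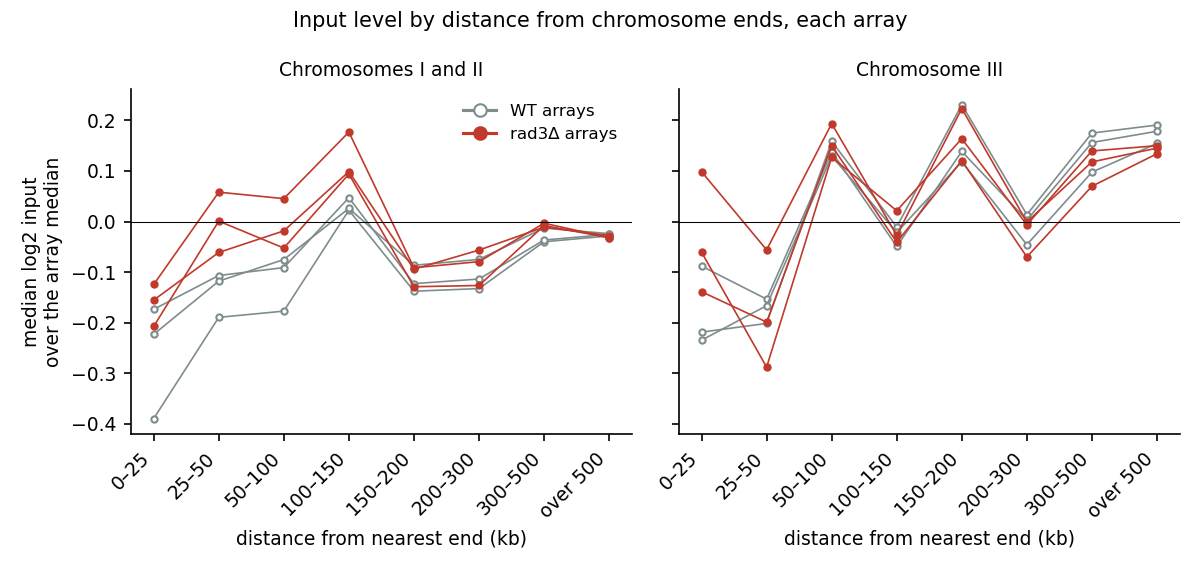
Median log2 input over the array median (vertical axis) by distance in kb from the nearest chromosome end (horizontal axis), on chromosomes I and II (left) and III (right). Each line is 1 array, grey and open for WT and red and filled for rad3∆; on I and II the red lines lie above the grey ones from 25 to 150 kb and meet them at 150 to 200 kb.

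Ends and islands overlap only in part. Leaving out the 150 kb at the ends of I and II, the island excess still differed by 0.13, 0.096 and 0.063 in the 3 pairs, with no overlap between the strains. Within those 150 kb the excess differed by 0.14, 0.019 and 0.032, and the arrays of the strains overlapped. Conversely, 532 probes lay near those ends but over 5 kb from any island. There the pairs differed by 0.099, 0.15 and 0.0094, and the arrays of the strains overlapped. At probes as far from islands elsewhere the mean difference was -0.018. G+C averaged 35.5% at the 532 probes and 36.4% at those elsewhere. All these sets hold only probes whose coordinates match the reference, which leaves out the right end of chromosome I. The part of G+C in the differences at the ends was not tested beyond the corrected values given in the closing section.

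Fixed domains, 13 in all, were compared as single values per array, each with a two-sided exact permutation test adjusted over the 13. The right 100 kb of chromosome I stood at -0.13, -0.11 and -0.075 in WT and at 0.068, 0.055 and 0.042 in rad3∆. Its strains did not overlap, and the difference was 0.16 ± 0.040 (SD, n = 3 pairs; exact p = 0.1, adjusted 0.433). The right 100 kb of chromosome II stood at -0.22, -0.057 and -0.074 in WT and at -0.043, 0.16 and -0.019 in rad3∆, a difference of 0.15 ± 0.085 with no overlap and the same exact p values. Without rad3∆ replicate 2 it was 0.086, and without WT replicate 1 it was 0.099. At the left end of I the pairs differed by 0.23, 0.065 and -0.011. The left end of II differed by 0.17 in pair 1 and by under 0.01 in the others.

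In the other domains the strains overlapped, except over the whole of chromosome II. The 100 kb around centromere I differed by 0.00024 between strains, those around centromere II by 0.046 and those around centromere III by -0.053, all with overlap. The 2 ends of chromosome III differed by 0.019 and 0.039. The mating-type region differed by 0.14, 0.19 and 0.0054 in the 3 pairs, with WT arrays from -0.34 to 0.0044. The pairs differed by 0.0024, 0.0025 and -0.0046 over the whole of chromosome I, by 0.0091, 0.011 and 0.0076 over II and by -0.032, -0.012 and -0.028 over III, and of these chromosomes II had no overlap. Of the 13 domains, 3 had no overlap between the strains and none passed the test, which at this size it could not.

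The mitochondrial genome, which shares the extract, was measured by 57 probes usable on all arrays. Relative to the nuclear median it stood at 5.03, 5.63 and 4.98 in WT and at 5.18, 5.86 and 5.33 in rad3∆. All 3 pairs were higher in rad3∆, by 0.15, 0.23 and 0.36, while the slides differed more than the strains did and the groups overlapped (exact p = 0.5). Of these 57 probes 28 were higher in all 3 pairs, 31 were higher in pair 1, and 0 had all rad3∆ arrays above all WT arrays. Their mean differences ran from -0.19 to 0.40. On at least 1 array 9 of the 57 probes were saturated (15.8%), with 1 to 6 on a WT array and 3 to 8 on a rad3∆ array, which limits the levels of those probes.

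By gene context no class separated the strains. Divergent gaps stood at -0.076, 0.088 and 0.056 in WT and at 0.021, 0.12 and 0.063 in rad3∆, a difference of 0.045. Convergent gaps differed by 0.04, tandem gaps by 0.027, gene bodies by -0.0074 and the surroundings of tRNA genes by 0.034. The arrays overlapped in all 5 classes, with exact p of 0.6 to 0.8 (adjusted 0.8 for each).

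For 4161 protein-coding genes with at least 2 probes, limma called 0 (0% higher, 0% lower) with the dye term and 0 with the replicate block, with 28 higher and 6 lower, and 252 higher and 147 lower, at an unadjusted p under 0.05. The smallest adjusted p of the blocked fit was 0.156. In all 3 pairs 15.7% of genes were higher and 15.5% lower. All rad3∆ arrays were above all WT arrays at 81 genes (1.95%) and below them at 58 (1.39%). The genes named here were therefore taken by size among those with 1 sign in all pairs, and none was called.

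The highest was new22 on chromosome III, with 0.65 from 2 probes, but WT replicate 1 alone decided it: -1.67 against 0.13 and 0.042 in the other WT arrays. sfp47 on chromosome I (2637642 to 2639631) likewise had WT arrays from -0.19 to 0.77. More even were glm1 (I, 2397248 to 2398188), at 0.26, 0.23 and 0.22 in WT and 0.77, 0.66 and 0.46 in rad3∆, and hcs1, a gene of mevalonate synthesis (I, 2643524 to 2645254), at -0.77, -0.71 and -1.08 in WT and -0.33, -0.50 and -0.56 in rad3∆. Of the 10 highest genes 5, among them glm1, miy1 and gmf1, lay within 300 bp of an island, as did 367 of all 4161 genes (8.82%).

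On the low side, ssa1, a gene of the Hsp70 family (I, 2295580 to 2297964), stood at -1.25, -1.51 and -1.58 in WT and at -1.65, -1.64 and -1.88 in rad3∆, with no overlap and a difference of -0.28. sod1, the copper-zinc superoxide dismutase gene (I, 1002838 to 1003600), differed by -0.29, with arrays that overlapped. amo1, with -0.41, had -0.96 in pair 1 and overlapped. Of the 10 lowest 0 lay within 1 kb of an island, where 13.3% of all genes did. With only 10 genes, 0 cannot be told from that share.

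One gene stood apart with its surroundings. ura4, which encodes the orotidine phosphate decarboxylase of uracil synthesis and is widely used as a marker in this yeast (III, 115589 to 116625), stood at 0.44, 0.55 and 0.30 in WT and at 0.79, 0.88 and 0.72 in rad3∆. The pairs differed by 0.35, 0.33 and 0.41, and the strains did not overlap (limma adjusted p with the block = 0.156). The 7 neighbouring probes from 115344 to 116940 each differed by at least 0.2 in every pair, with a mean of 0.39. Just outside, the probe at 115080 differed by 0.036 in pair 1 and 0.23 in pair 2, that at 117055 by 0.22 on average with 0.14 in pair 1, and that at 117303 by -0.20 on average. This stretch was picked after its values had been seen: it was the longest of 8 stretches of 3 or more neighbouring probes with every pair at least 0.2 up, and there were 0 with every pair as far down. The labels give no other genotype than the alleles above, and a cause was not tested.

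**Figure D5:**
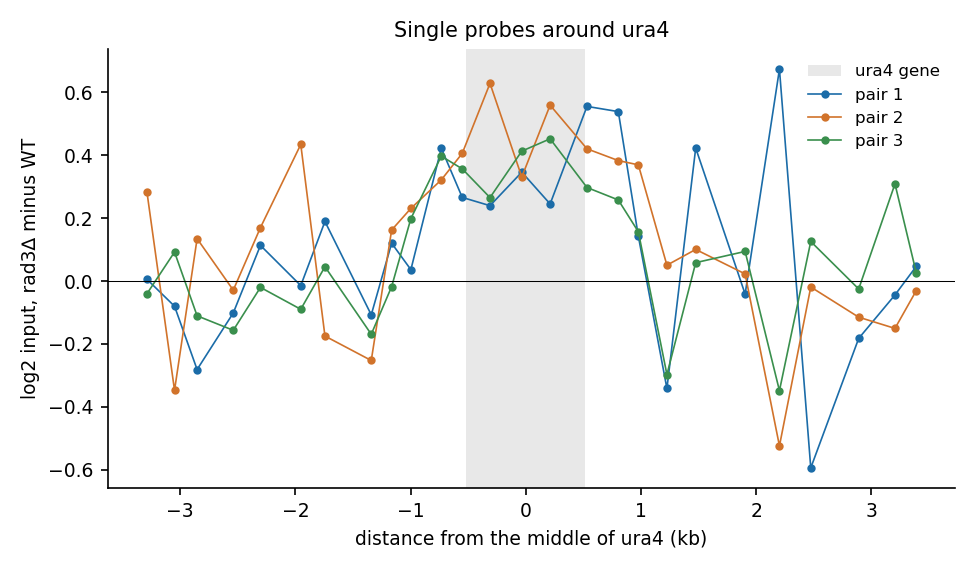
Difference in log2 input (rad3∆ minus WT, vertical axis) at single probes by distance in kb from the middle of ura4 (horizontal axis). Coloured lines are the 3 pairs and the grey band is the gene; the 7 probes over and beside the gene lie at 0.24 or above in every pair, the next probe on the right has a mean of 0.22, and those further out scatter around 0.

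The next longest stretches held 6 probes between puf5 and SPAC4G8.04 on chromosome I (764965 to 766552), with a mean difference of 0.38, and 5 probes at mdb1 (I, 2882612 to 2883961), with 0.43. Both lie at islands.

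Single probes gave 0 calls with the dye term (0% of 42366) and 1 with the block, higher in rad3∆ (0.00236%). It lies in the gap between lsm8 and csl4, an exosome subunit gene (III, 2279139 to 2279198), and stood at -1.38, -1.54 and -1.50 in WT and at -0.096, -0.61 and -0.46 in rad3∆. Its difference of 1.08 (limma adjusted p = 0.039 with the block) stood far above those of the nearest probes on either side, 0.088 and 0.16.

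Most lists had a median near that of all genes, and their members went both ways. Of all 4161 genes 15.7% were higher in all 3 pairs and 15.5% lower. The strains did not overlap at 1.95% of them with rad3∆ above and at 1.39% with rad3∆ below. No list was tested as a set. Among 9 measured auxotrophic marker genes the median difference was -0.019. Besides ura4 it was his7 whose strains did not overlap, 5 probes with -0.19. leu1 stood at 0.011, ade6 at -0.019 and lys1 at -0.13. Checkpoint and mitotic control genes had a median of -0.032, with 1 of 13 higher in all pairs (7.69%), 3 lower (23.1%) and none without overlap. Of these cds1, the effector kinase gene, differed by -0.078, chk1 by 0.00088 and wee1 by 0.068, and cdc25 by -0.15 (pairs -0.0074, -0.20 and -0.25). Genes of origin firing and the fork had a median of -0.025, with 2 of 24 higher in all pairs (8.33%) and 6 lower (25%). Among the lower ones were mcm2 and mcm5 of the replicative helicase, each at -0.13. The 4 measured genes of deoxynucleotide supply had a median of 0.051, with 2 higher in all pairs (50%) and 0 lower. These 2 were suc22, of the small subunit of ribonucleotide reductase, at 0.20 and ddb1 at 0.077, both with overlap. They lay 0 bp and 41 bp from an island. cdc22 and spd1 were not among the genes with 2 probes.

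The medians of other lists were -0.052 for 4 core histone genes, -0.035 for 87 cytosolic ribosomal protein genes, -0.033 for 7 highly transcribed metabolic genes, -0.0069 for 9 repeated-family genes and -0.005 for 7 heat shock genes, beside -0.0057 over all 4161 genes. Single members lay further out: ribosomal protein genes ran from -0.35 to 0.21, with rpl1702 at -0.23, and heat shock genes from ssa1, at -0.28, to hsp16, at 0.22. The 28 subtelomeric genes had a median of 0.097, with 16 higher in all 3 pairs (57.1%) and 0 lower, although none was without overlap. Over all genes 15.7% were higher in all 3 pairs and 15.5% lower. Most of the 16 lay at the right end of chromosome II, and the list holds no gene of the right end of chromosome I. Among the 28 genes pho1, an acid phosphatase gene, differed by 0.23 and pho84, a phosphate transporter gene, by 0.18, both at the right end of chromosome II. No gene with the prefix of the mating-type cassettes had 2 probes. No member of any list passed either fit.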

How the data were processed

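Per the file headers, the deposited spot intensity of each dye was made with Agilent Feature Extraction (the submitters' processing notes name 10.7.3.1, the headers of both replicate 1 arrays 10.7.1.1), background-subtracted, spatially detrended and scaled by 1 dye factor per array. The authors' ratio of IP to input was not used. Control and flagged spots were left out, and the log2 processed input intensity was centred on the nuclear median of each array. Of 42641 nuclear probes, 33 at rad3 and 242 flagged on some array were left out.

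File coordinates (Spombe:NCBI:Feb2002) matched ASM294v3 on chromosomes II, III and I below 3751160, which holds 85.8% of probes: 357 of 365 windows of 100 probes had their best fit of probe length to G+C within 12 bp of offset 0. Islands and genes were taken only there; other positions are in file coordinates.

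Bins were medians of at least 10 probes and genes medians of at least 2. All 6 arrays entered limma 3.58.1 (R 4.3.3), with strain and dye orientation, two-sided, Benjamini-Hochberg 0.05; single values had exact permutation tests. Code was tested on simulated data. Python was 3.11.15. Genes and bins were named as the 10 highest and 10 lowest among those called, or, where too few were called, by size among those with 1 sign in all pairs. The members and lists were chosen with earlier results of these data known.

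Same-numbered arrays share a slide. Their deviations from the strain means over bins correlated at 0.71, 0.71 and 0.64, so the numbers pair the samples, and values with the replicate block are given beside results that they change. Alternatives were background correction, centring, scaling, G+C correction, probe filter, dye term, block, bin and island settings, and left-out arrays. The number of arrays limits precision; no counts underlie the values. One island sequence and the values of its island are not reported here.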

Additional observations from a re-analysis of the deposited data

How the results depend on the processing

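Counts of called differences depended on whether slides were paired. Over bins of 10 kb the 0 calls of the unpaired limma fit became 8 with the replicate block, and with the block they were 117 under mode centring, which moved the median bin to 0.054, 25 under quantile normalization, 3 after G+C correction, 37 with probes well above background on all arrays and 0 under normexp background. Leaving out replicates gave 0 to 30 bins: 4 without replicate 2 of both strains under either fit, 30 without replicate 3 with the block, and 0 otherwise. For single probes the block gave 1 call, as it did under mode centring, quantile normalization, G+C correction and the filter on dim probes, and leaving out replicates gave 0 to 18 (8 without replicate 1, 5 without replicate 2, 18 without replicate 3 with the block). Genes went from 0 to 61, 22 and 35 without replicates 1, 2 and 3 of both strains, the last with the block only. Without replicate 1 or 2 the dye term is itself the block, so both fits are the same. Islands one by one gave 37 with the block, 11 without replicate 1, 0 without replicate 2 and, with the block, 23 without replicate 3.

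The number of called island distance steps, 2 of 10, was 4 without the dye term, 8 with the block, 1 under normexp (7 with the block), 7 under quantile normalization (8 with the block), 8 under mode centring with the block, 6 after G+C correction (10 with the block) and 10 with the filter on dim probes and the block. Leaving out single arrays or pairs gave 0 to 8, with 8 without replicate 1 or 2 of both strains and 1, or 7 with the block, without replicate 3. Each was a count of steps higher in rad3∆.

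The island excess of 0.10 was 0.040 with islands of 70% A+T and 0.050 on chromosome III alone, and 0.071 to 0.12 without single arrays or pairs. After G+C correction it was 0.081, the left end of I 0.071, the left end of II 0.058 and the right end of II 0.14. The right end of I, 0.16, became 0.22 under mode centring and 0.14 to 0.18 with arrays left out, and the right end of II 0.086 to 0.20. The mitochondrial difference was 0.12 under quantile normalization and 0.044 to 0.45 with arrays left out. Domains without overlap, 3 in the main setting, numbered 3 to 6 with arrays left out, and 8 had 1 sign in all pairs, which is what the replicate block tests by sign flips, with a smallest exact p of 0.25. Of 5 gene context classes 1 had no overlap after G+C correction and 2 had 1 sign in all pairs under the block. pmp20, among the lowest genes, turned to 0.0062 under normexp, with or without the block. The block combined with another setting, single chromosomes, islands one by one and the 150 kb end zone were added after seeing the data. The causes of these shifts were not tested. With 3 arrays per strain a single value cannot pass 0.05, and 27 to 398 nuclear probes per array had an input not well above background, which limits their levels.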
